A study of Homo sapiens with 14 samples.

Results

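The kallikrein window is the stretch of chromosome 19 from 51.32 to 51.42 Mb (hg19) that holds KLK1, KLK15, KLK3, KLK2 and KLK4. All peaks of 14 deposited ChIP-seq peak lists that touch it were taken, which gave 20 of 227479 peaks. The window was chosen by a measured value, the height of a uH2A mouse-antibody peak: it holds the tallest such peak of EED knockdown cells with no control peak beneath it. That peak's height and its absence from the control list are therefore a description with no test. ChIP-seq (chromatin immunoprecipitation followed by sequencing) was done in cells of the established human prostate cancer line DU145. Control cells carried a scramble construct and knockdown cells a stable EED knockdown. The titles give every knockdown library the same construct label, sh3, and both kinds of cells were selected with puromycin. Each of 7 antibodies (EED, uH2A rabbit, uH2A mouse, RING1A, RING1B, BMI1, H3K27me3) was used once in each cell line. With 1 library per antibody and cell line there are no replicates and no difference has a replicate check, and an effect of the construct cannot be told apart from one of EED.

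The kallikreins are secreted serine proteases encoded side by side. KLK3 encodes prostate-specific antigen and KLK2 its closest relative, both made by the luminal cells of the prostate under control of the androgen receptor. KLK4 is a further androgen-responsive prostate kallikrein, KLK1 is tissue kallikrein, which releases kinins, and KLK15 encodes a less studied member. DU145 cells are known for very low androgen receptor levels and make little or no prostate-specific antigen. EED is needed for the activity of PRC2, the Polycomb complex that writes H3K27me3 on silent genes, and RING1A, RING1B and BMI1 belong to PRC1, which ubiquitylates histone H2A (uH2A). Among silent genes, those whose promoters are rich in CpG are the usual Polycomb targets.

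In the RefSeq annotation the genes follow each other in the order KLK1, KLK15, KLK3, KLK2, the pseudogene KLKP1 and KLK4. That annotation is on GRCh38.p14, another build than the peaks, so only names and order were taken from it. In hg19 the approximate positions used were 51.358 to 51.364 Mb for KLK3 and 51.377 to 51.384 Mb for KLK2, and peaks were placed against no other gene. The sequences of the KLK3 and KLK2 promoters are shown because the tallest peak of the window lies at the start of KLK3 and because these promoters resemble each other. Each line gives the 250 bases before the gene's start, from RefSeq (GRCh38.p14, plus strand, 5′ to 3′).

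KLK3: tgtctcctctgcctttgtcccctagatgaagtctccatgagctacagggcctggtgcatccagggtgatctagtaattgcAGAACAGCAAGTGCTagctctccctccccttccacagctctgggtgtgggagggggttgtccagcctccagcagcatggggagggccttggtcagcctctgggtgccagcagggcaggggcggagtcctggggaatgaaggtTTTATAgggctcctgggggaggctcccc
KLK2: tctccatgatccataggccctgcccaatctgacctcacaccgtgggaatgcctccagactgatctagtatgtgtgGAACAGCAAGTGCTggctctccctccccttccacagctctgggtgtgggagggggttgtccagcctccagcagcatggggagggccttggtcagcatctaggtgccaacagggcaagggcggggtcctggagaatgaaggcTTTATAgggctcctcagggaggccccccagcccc

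The capitals mark 3 motifs, each searched on both strands. GAACAGCAAGTGCT, all but the first base of the proximal androgen response element known from the KLK3 promoter and copied from that promoter, was found in 2 of 35116 RefSeq promoters of this length, those of KLK3 and KLK2. AGAACA, a half-site of that kind of element that overlaps it in KLK3, was in KLK3 alone of the 6 kallikrein promoter entries and in 12.4% of all promoters. TATAAA, which positions the basal transcription machinery and is seen here as its reverse complement, was in 3 of the 6 entries (KLK3, KLK2 and 1 of the KLK15 entries) and in 10.7% of all promoters. A match describes letters and is no evidence of binding. RefSeq promoter entries were found for KLK15, KLK3, KLK2 and KLK4. Each of the 6 entries held few CpG dinucleotides. KLK3 held 1 and KLK2 held 2 in 250 bases, against a median of 11 over all promoters, and 14.7% of promoters held no more than KLK3. The GC content of KLK3 was 60.8%, near the median of 58.0%.

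The 2 promoters are close copies. Over 280 aligned positions of the 300-base RefSeq entries, 87.9% were identical, with a longest identical run of 80 bases. Reads were 40 nucleotides long. Of the 261 words of 40 bases in the KLK3 entry, 41 also occurred in the KLK2 entry and in no other promoter of the table. The remaining words occurred in no other promoter. The letters under the peak itself were not read, since no hg19 genome was used here, so how many of its reads could also fit KLK2 was not tested.

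Of the 20 peaks, 18 were in control and 2 in knockdown libraries. Control H3K27me3 gave 14 peaks that cover 4975 bp (exact Poisson interval of the count 7.65 to 23.5), and knockdown H3K27me3 gave 0 peaks (0 to 3.69). The uH2A rabbit antibody gave 4 control peaks covering 625 bp (1.09 to 10.2) and 1 knockdown peak of 175 bp (0.0253 to 5.57). The uH2A mouse antibody gave 0 control peaks and 1 knockdown peak of 250 bp. The other 8 libraries, EED, RING1A, RING1B and BMI1 in both cell lines, had no peak in the window. These 95% intervals cover counting error only and treat peaks as independent. The 14 control H3K27me3 peaks join into 5 when merged within 1000 bp, so their interval may be too narrow. The sequencing depth of the libraries is unknown. A window without a peak was common in several of those lists. Among 17154 windows of 100 kb with a peak of any list, 94.2% had no control RING1B peak, 65.8% no control BMI1 peak and 63.3% no control EED peak. For RING1A, the list with the most peaks, it was 30.7% of windows. For uH2A mouse, 47.5% of windows had no control peak (34.2% on chromosome 19) and 18.9% had at least 1 knockdown peak. The window was chosen for its knockdown peak of this antibody without a control peak beneath it. These shares are therefore a description, and nothing is read from the counts of this antibody.

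**Figure D1:**
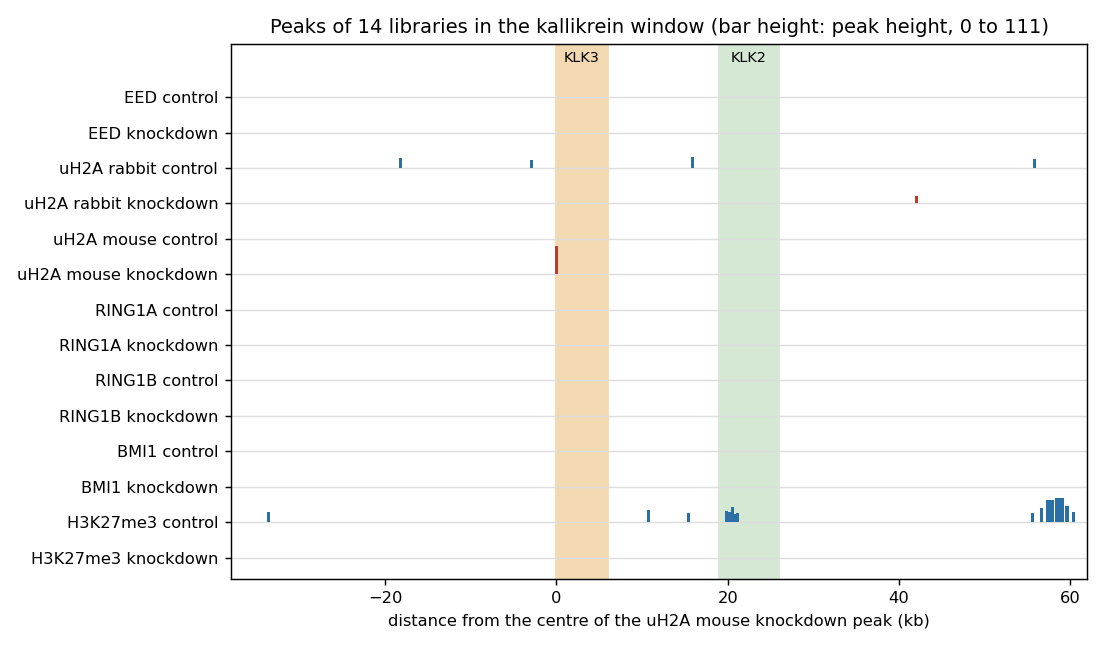
Peaks of each library (rows) along the window, by distance in kb from the centre of the uH2A mouse knockdown peak. Bar height is peak height on a scale of 0 to 111, short peaks are drawn wider than they are, blue marks control and red knockdown libraries, and shading marks the approximate KLK3 and KLK2 positions. Of the 14 H3K27me3 control peaks, 5 lie at KLK2, 6 at the upper end of the window and the rest singly elsewhere. The tallest bar is the uH2A mouse knockdown peak at KLK3.

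The peak that chose the window lies at chr19:51357876-51358125, at the start of the KLK3 stretch. It is 250 bp long and has a height of 111, in the units of the authors' peak caller, which were not normalised between libraries. Its height ranked 23 of the 7160 peaks of the uH2A mouse knockdown list, 3.28 times the list's median of 33.9. By height per base of length, 5.18% of the list reached it, against 0.321% by height. It was the tallest of the 152 peaks of that list on chromosome 19. No control uH2A mouse peak lay within 42975 bp. Of all knockdown uH2A mouse peaks, 47.1% had no control peak beneath them, and nothing is read from the single such peak here. The next tallest of these 3370 new peaks had a height of 100.6, and their median was 32.3.

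The KLK3 peak overlapped no peak of the other 13 lists. Among knockdown uH2A mouse peaks 24.3% overlapped none, and among the new ones 51.6%. Peaks without an overlap were thus common in this list. All of these 1738 peaks are new ones, so the choice of the tallest new peak fixes that the others are lower, and their heights are given as a description. Their median was 32.0, and the next tallest, on chromosome 14 at 31074176 to 31074350, had a height of 59.2. The same choice fixes that the 22 other peaks of at least the KLK3 peak's height lie on a control uH2A mouse peak. Counting that list among the 13, these 22 overlapped between 5 and 13 lists, with a median of 12.5.

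The 9 next tallest new peaks of the list had heights from 56.3 to 100.6 and lay 150 to 10550 bp from a control uH2A mouse peak. They overlapped from 0 to 9 other lists, and 1 of them overlapped none. The second of the new peaks, on chromosome 1 at 156186226 to 156186450 with a height of 100.6, overlapped 8 other lists. The third, on chromosome 16 at 46391851 to 46391975 with a height of 82.5, overlapped 9. The seventh, with no overlap, is the chromosome 14 peak named above. The KLK3 peak lay farther from a control peak of its antibody than these 9 did. Its absence from the control list was part of the choice, and the distances of all new peaks were not compared. Of the 100-kb windows on chromosome 19 with a peak of any list, 34.2% had no control uH2A mouse peak. Nothing is read from this distance.

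**Figure D2:**
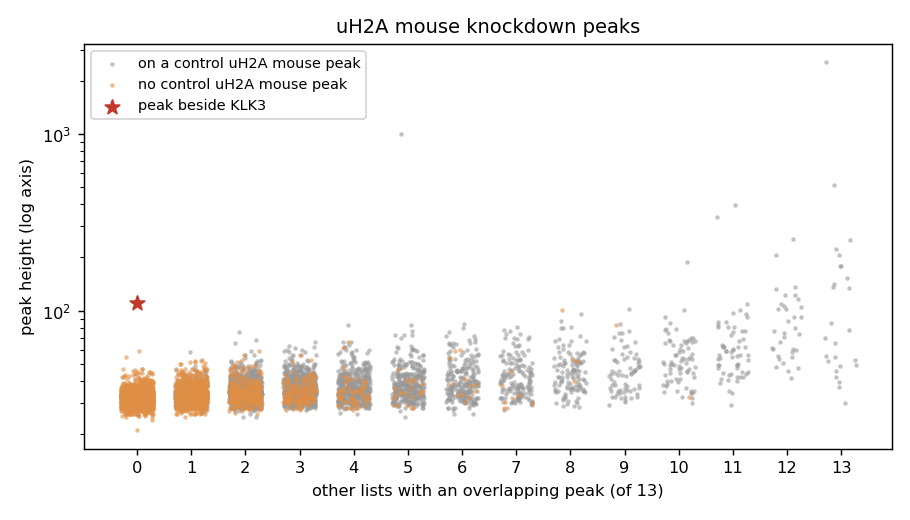
Each point is a uH2A mouse knockdown peak, by its height (log axis) and by the number of the other 13 lists with an overlapping peak (points are spread sideways within each number). Grey points lie on a control uH2A mouse peak, orange points do not, and the star is the KLK3 peak, which at a height of 111 overlaps no other list.

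Within its own list the KLK3 peak was isolated. The nearest peak of its own list was 6194475 bp away, against a median of 9825 bp over the list. At least as isolated was 0.321% of the list, the KLK3 peak itself included. The list was sparse, on chromosome 19 no more than elsewhere. Among all 100-kb windows with a peak of any list, 81.1% held no peak of this list. Among such windows on chromosome 19, which has 152 of the list's peaks, 77.6% held none. The nearest peak of any list was the control uH2A rabbit peak at 51355001 to 51355075, 2800 bp away. The nearest control H3K27me3 peak was 10550 bp away and the nearest knockdown uH2A rabbit peak 41825 bp. The nearest EED peak was 42850 bp away in control and 7480500 bp in knockdown cells. The nearest RING1A peak in control cells was 248875 bp away, and those of RING1B and BMI1 were 717825 and 717800 bp away. The rabbit antibody, raised against the same mark, thus gave no peak at this place in either cell line.

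Within a tolerance of 0.001, 99.4% of the heights in this list are whole numbers or whole numbers less up to 10 times a constant, and what the constant stands for is unknown. The KLK3 peak had a whole height, as did 26.7% of the list at the same tolerance. Of the 33 peaks of the list with a height of at least 100, 1 had a whole height, and that was the KLK3 peak. Of these 33, 2 had no control peak beneath them. At the same length of 250 bp, 2 of 174 peaks were at least as tall, the KLK3 peak itself included, and the median height was 41.9. No signal from input DNA or a control IgG could be set beside it. What gave rise to the peak was not tested.

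The uH2A rabbit peaks of the window were of ordinary height for their lists. In control cells the tallest, at 51373726 to 51373950, between KLK3 and KLK2, had a height of 44.1, and 73.0% of its list was lower. The peak at 51339726 to 51339925, before KLK3, had a height of 39.1, that at 51413751 to 51413875 one of 34.2 and that at 51355001 to 51355075, the nearest to KLK3, one of 31.2. The median of the list was 36.3, so 2 of the 4 lay above it. None of these 4 was kept, that is, overlapped a knockdown peak of the antibody. With 3 counts as the limit for 0, a rough rule for so few peaks, 0 of 4 allows a share of up to 75%. It is no sign of a difference from the 28.8% kept over the whole list. Among control peaks of the list within the height range of these 4, 16.8% were kept. The knockdown peak, at 51399951 to 51400125, had a height of 30.5 against a median of 35.3 and lay 13625 bp from the nearest control peak of the antibody. It was new, as were 30.2% of the knockdown uH2A rabbit peaks.

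**Figure D3:**
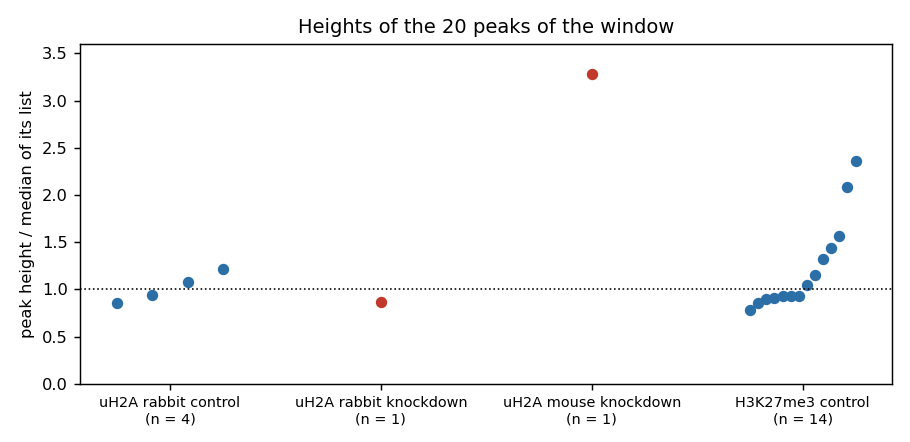
Height of each of the 20 peaks over the median height of its own list (dotted line at 1), by library, with blue for control and red for knockdown libraries. The uH2A mouse knockdown peak stands at 3.28, the tallest H3K27me3 control peak at 2.36, and the uH2A rabbit peaks lie from 0.859 to 1.21.

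H3K27me3, the mark placed by PRC2, made up most of the window's peaks in control cells. The heights of the 14 peaks ran from 31.8 to 96.3 with a median of 40.4, next to a list median of 40.8. Of the 14, 7 lay above the list median and 7 below. Joined across gaps of up to 1000 bp they formed 5 blocks. A first single peak lay at 51324351 to 51324450, with a height of 37.8, towards the KLK1 end of the window. Further single peaks lay between KLK3 and KLK2, at 51368676 to 51368875 with a height of 47 and at 51373326 to 51373450 with a height of 36.8. No H3K27me3 peak fell within the KLK3 stretch.

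The block at KLK2 ran from 51377651 to 51379225 and held 5 peaks that covered 1200 bp. Its tallest peak, at 51378376 to 51378725, had a height of 58.8, with 20.2% of the list at least as tall. The other 4 had heights of 42.8, 38, 35 and 31.8. Of 17179 such blocks in control cells, 12.2% covered at least as much. All of this block lies within the approximate KLK2 stretch, after its start at 51.377 Mb. The promoter sequence shown above lies before the gene's start, and whether the block reaches it was not tested. No uH2A peak of either antibody lay within the block.

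The block at the upper end of the window, the KLK4 end, ran from 51413551 to 51418450 with 6 peaks that covered 3350 bp. Of all blocks, 2.92% covered at least as much. Its main peaks lay side by side, at 51415126 to 51416150 with a height of 85, at 51416201 to 51417275 with a height of 96.3 and at 51417326 to 51417900 with a height of 64. The peak with a height of 96.3 ranked 1863 of 35368, so 5.27% of the list was at least as tall. By height per base of length 89.4% of the list reached it. That measure divides by length, and this peak is far longer than the list's median of 200 bp. The share is thus not read as a low signal. The peak's length of 1075 bp and the 1025 bp of its neighbour place both among the 4.20% of control H3K27me3 peaks that reach 1000 bp. The other peaks of the block had heights of 54, 38 and 37. Which gene lies under this block was not read, since no hg19 annotation was used here.

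**Figure D4:**
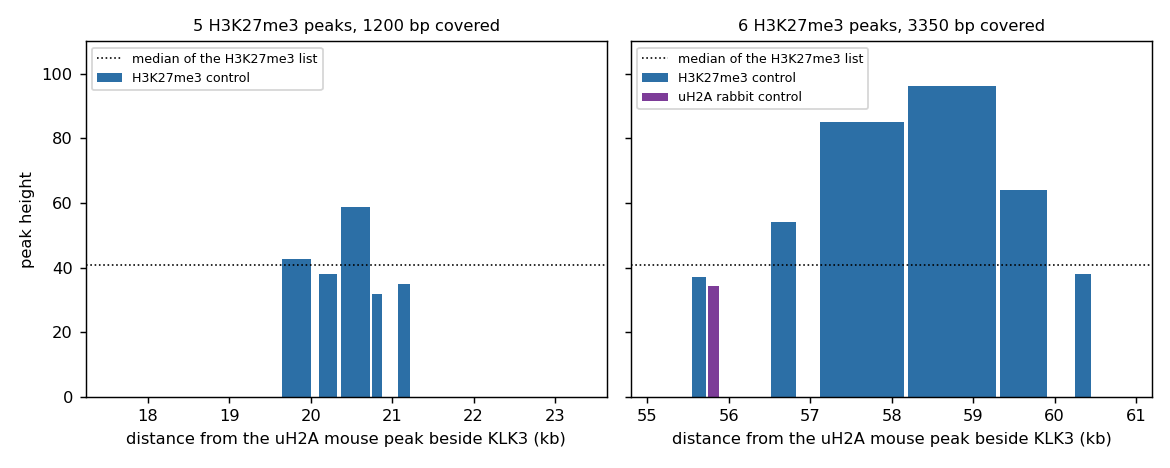
Peak height against distance in kb from the uH2A mouse peak beside KLK3, for the H3K27me3 block at KLK2 (left) and the block at the KLK4 end (right), in control cells, each bar as wide as its peak. The dotted line is the H3K27me3 list median of 40.8, and the purple bar is the uH2A rabbit control peak that falls 25 bp from an H3K27me3 peak.

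None of the 14 H3K27me3 peaks was kept in knockdown cells. Over the whole list 3.81% of control peaks were kept, and 2.34% of those within the height range of these 14, so 0 of 14, which allows a share of up to 21.4%, is near the background and no result about the kallikreins. The nearest knockdown H3K27me3 peak was 684975 to 778875 bp away from them. Knockdown H3K27me3 peaks were scarce on the whole chromosome, at 0.169 per 100 kb against 3.32 in control cells. Of the chromosome's windows with a peak of any list, 97.6% had none.

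By number of H3K27me3 peaks the window was denser than most, though 71.5% of windows (59.9% on chromosome 19) held no control H3K27me3 peak at all. Of 17154 windows, 4.05% held at least 14 control H3K27me3 peaks, and of 459 windows on chromosome 19 9.37% did. For uH2A rabbit in control cells, 12.5% of windows held at least 4 peaks, and 26.8% of those on chromosome 19. The adjoining 100 kb had 9 control H3K27me3 peaks on the KLK1 side and 3 on the KLK4 side, and 6 and 2 control uH2A rabbit peaks. Control EED and uH2A mouse had 1 peak each on the KLK1 side and 0 on the other. Knockdown uH2A rabbit had 2 and 1 peaks, and the remaining 9 libraries had 0 on both sides.

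**Figure D5:**
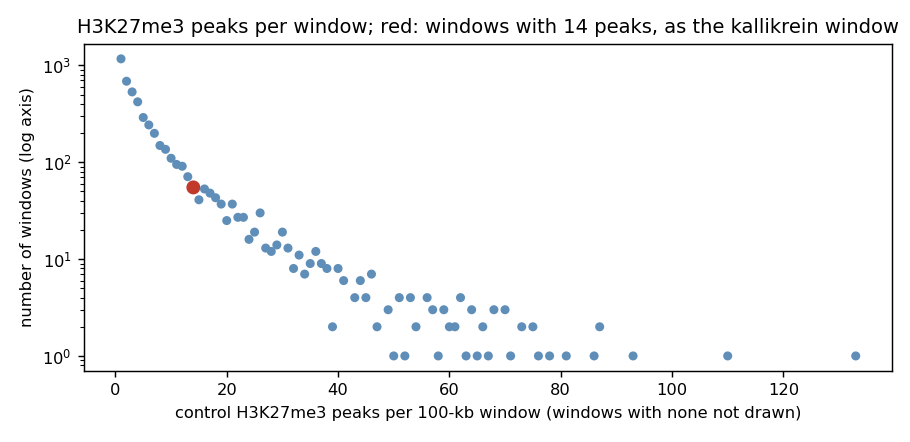
Number of 100-kb windows (log axis) by the number of control H3K27me3 peaks they hold. The red point marks windows with 14 peaks, as in the kallikrein window, and 4.05% of all windows with a peak of any list hold that many or more.

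None of the 20 peaks overlapped a peak of any other list. For the 14 H3K27me3 peaks this is near the background, and for the other 6 the numbers are too small to set against theirs. Over the whole lists, no overlap was found for 82.9% of control H3K27me3 peaks, 35.3% of control and 22.8% of knockdown uH2A rabbit peaks and, as given above, 24.3% of knockdown uH2A mouse peaks. Control uH2A rabbit and H3K27me3 peaks came close at 2 places in this window. The uH2A rabbit peak at 51413751 to 51413875 lay in the gap between H3K27me3 peaks of the KLK4-end block, 25 bp from one of them, and the one at 51373726 to 51373950 lay 275 bp from another. The remaining pair of uH2A rabbit peaks lay 15275 and 13600 bp from H3K27me3. Over the whole list, 12.0% of control uH2A rabbit peaks lay within 300 bp of a control H3K27me3 peak. The uH2A and H3K27me3 libraries belong to different library sets, described by different culture notes in the labels, so a difference between these antibodies cannot be told apart from one between the sets.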

How the data were processed

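DU145 chromatin was immunoprecipitated with 7 antibodies in control and EED knockdown cells, 1 library each. Per the labels' protocols, each library was sequenced in a lane of its own with 40-nucleotide reads. Per the submitters' processing notes, reads were aligned with Bowtie to hg19. The name of the HPeak caller is part of each list's name, and each library has a list of its own. They have no header, and the height was read from its values as the signal of each peak in the deposited lists. The deposited score is negative, has no stated definition and was not used. Depth is unknown, since no read totals were at hand.

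The window and the approximate gene positions come from the rule that defines the locus, and the members and lists were chosen with earlier results of these data known. All 20 peaks are named or counted. Overlap meant at least 1 bp. Poisson and Clopper-Pearson intervals are at 95%. Upper limits of a share kept at a count of 0 use 3 counts instead, which is rough for small numbers. Intervals and limits cover counting error only. Windows of 100 kb were laid so that the locus is one of them, and peaks were assigned by their midpoint. Only windows with a peak of any list were counted. No test between cell lines was made, since each group has 1 library. Overlap was checked on lists made from control peaks, some kept in place and others moved far away. Merging was checked on the control lists themselves. Alternatives changed the window, the height minimum, the overlap rule, merging and the ranking. RefSeq promoter sequences (GRCh38.p14) were used by gene symbol alone. Python 3.11.15, numpy 2.4.6, pandas 2.3.3, scipy 1.17.1 and matplotlib 3.10.9 were used.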

Additional observations from a re-analysis of the deposited data

How the results depend on the processing

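The counts of kept and new peaks did not change when overlap had to reach 50% of the peak or when peaks within 1000 bp counted. Of 168 recomputed values 31 moved. With the window wider by 50 kb on each side, peaks and covered length were 24 and 8050 bp for control H3K27me3, 8 and 1600 bp for control uH2A rabbit, 4 and 1000 bp for knockdown uH2A rabbit, 1 and 125 bp for control EED and 1 and 100 bp for control uH2A mouse. With it narrower by 10 kb, control H3K27me3 had 7 peaks over 1525 bp, since the KLK4-end block and the peak nearest the KLK1 end fall outside. Under a height minimum at the control median, 7 control H3K27me3, 2 control uH2A rabbit and 0 knockdown uH2A rabbit peaks (0 bp) were left. Merging within 1000 bp left 5 H3K27me3 peaks. The share of the list at least as tall as the tallest window peak became, on chromosome 19 alone, 0.658% for knockdown uH2A mouse, 3.42% for control H3K27me3, 31.6% for control and 75.9% for knockdown uH2A rabbit. By height per base of length it was 5.18%, 89.4%, 59.1% and 63.5% in the same order. Outside high-signal windows (100-kb windows in which, or beside which, at least 2 other antibodies have a peak over 10 times their list median) it was 0.0995% for knockdown uH2A mouse and 4.74% for control H3K27me3. By covered length in place of number, 3.08% of windows reached the kallikrein window for control H3K27me3, 15.0% and 22.1% for control and knockdown uH2A rabbit and 5.91% for knockdown uH2A mouse. No paired analysis was possible because each group has 1 library. Depth per library is unknown, so a missing peak may lie below what the caller could detect.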
